A study of Mus musculus with 12 samples.

Results

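Male Treg cells that lack CNS4, an enhancer of the gene Foxp3, were compared with male Treg cells that keep it. The 6 male libraries were taken from 12 in all by the genotype and sex in the sample labels: 3 from mice in which CNS4 was knocked out, numbered 1, 2 and 3, and 3 from mice with a floxed but undeleted CNS4, numbered 1, 2 and 4. The floxed group is labelled as wild type, so it carries the recombination sites and not the deletion. All mice were of the C57BL/6 strain and matched for age, without an age being stated. The remaining 6 libraries came from females heterozygous for the floxed or the knockout allele, 3 of each. Cells were sorted by flow cytometry for CD4 and Foxp3, received no treatment and were lysed at once, and total RNA was sequenced. The organ is given by the letters Thy in the sample names and by the series title, which concerns the thymus.

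Regulatory T (Treg) cells are CD4 T cells that hold back immune responses, and they depend on the transcription factor Foxp3. Foxp3 lies on the X chromosome, so a male cell has only 1 copy of it, and a male that inherits the knockout allele has no intact CNS4 to fall back on. In the thymus, Foxp3 is switched on in developing T cells that receive a strong T cell receptor signal and interleukin-2, whose receptor acts through STAT5. The thymus also holds mature Treg cells that return from the periphery and carry genes of activated, or effector, Treg cells. Because the cells were sorted on Foxp3, cells that did not reach the gate are not in these libraries. In bulk RNA, fewer cells of a type and less RNA per cell cannot be told apart.

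Gene counts ran from 14047136 to 16250798 in 5 male libraries and reached 30244505 in knockout 3, and each library had reads in 18649 to 19885 genes. Plus-strand genes held 96.6 to 97.2% of the reads of protein-coding genes in every male library. Minus-strand genes are therefore poorly counted, and their strand is given below. Not all of them are low, since the minus-strand gene Hsp90aa1 had 178 to 321 CPM. Of the genes that define T cells, Cd3d had 811 to 933 CPM (counts scaled to the library size) in the 6 libraries, while Cd3e and Cd4, both minus strand, had 20.4 to 28.8 and 4.76 to 7.99 CPM. The libraries of a group were not alike. The first principal component, with 46.1% of the variance, put floxed 4 (42.8) beside knockout 2 (66.7) and floxed 2 (-52.3) beside knockout 3 (-37.5), with floxed 1 (-23.6) and knockout 1 (3.84) between them. Floxed 4 and knockout 2 also had the most RNA of macrophage and dendritic cell markers. The summed level of that list was 7225 and 7987 CPM in them and 1298 to 2428 CPM in the other 4 libraries. Spearman's rho between a gene's GC content and a library's deviation from the gene's mean was -0.11, 0.078 and 0.27 in floxed 1, 2 and 4 and -0.34, -0.22 and 0.35 in knockout 1, 2 and 3. Whether the libraries stem from different mice is not stated, so a p-value here speaks only of the spread among these samples, which may be technical.

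Unless a fit is named otherwise, the spread behind each edgeR SE and adjusted p was estimated over all 12 libraries, the 6 female ones included. Against it 3 genes were called, all higher without CNS4: the long noncoding RNA gene 1810073O08Rik, Fam129a and Tmem154. They were 3 of 12411 tested genes (0.0242%), and 0 genes (0%) passed in the lower direction, at an adjusted p below 0.05 in the quasi-likelihood test of edgeR, adjusted by Benjamini-Hochberg over all tested genes. At an unadjusted p below 0.05 there were 654 genes higher and 354 lower. The promoter side of each of the 3 genes is shown, since they alone were called, as the 250 bases before the RefSeq start on build GRCm38.p6, 5′ to 3′. Capitals would mark a match to the STAT5 motif TTCNNNGAA or to the forkhead motif TGTTTAC on either strand.
1810073O08Rik, chr17:83917684-83917933, plus strand: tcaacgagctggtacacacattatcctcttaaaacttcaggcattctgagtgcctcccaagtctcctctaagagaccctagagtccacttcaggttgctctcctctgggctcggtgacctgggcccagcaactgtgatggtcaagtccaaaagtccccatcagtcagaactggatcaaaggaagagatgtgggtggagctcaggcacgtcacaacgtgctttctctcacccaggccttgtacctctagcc
Fam129a, chr1:151571123-151571372, plus strand: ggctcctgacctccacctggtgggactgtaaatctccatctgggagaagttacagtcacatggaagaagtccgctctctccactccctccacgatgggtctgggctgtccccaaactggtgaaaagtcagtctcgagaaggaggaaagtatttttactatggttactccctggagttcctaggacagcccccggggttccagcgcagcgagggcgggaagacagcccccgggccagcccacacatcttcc
Tmem154, chr3:84665942-84666191, plus strand: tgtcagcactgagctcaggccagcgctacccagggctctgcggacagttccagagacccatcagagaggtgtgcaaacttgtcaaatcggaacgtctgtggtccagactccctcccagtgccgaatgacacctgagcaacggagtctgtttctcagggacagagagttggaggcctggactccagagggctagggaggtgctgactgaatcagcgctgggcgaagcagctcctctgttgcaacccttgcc
All 3 windows had 0 matches to either motif, so no letter is in capitals. In the same window, 7.02% of 32851 mouse promoters held the STAT5 motif and 3.17% the forkhead motif. A window without a match says only that these letters are not in it.

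1810073O08Rik, on chromosome 17, is annotated as a long noncoding RNA in RefSeq. It had 5.80, 7.45 and 9.04 CPM in floxed 1, 2 and 4 and 22.0, 23.2 and 21.6 CPM in knockout 1, 2 and 3. The knockout libraries were close to each other, each above every floxed library, with 84 to 130 counts behind a floxed value and 349 to 568 behind a knockout value. On the log2 scale it rose by 1.58 (SE 0.19, edgeR adjusted p = 0.0432). It had no match in GENCODE M21, so its overlap with other genes was not measured.

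Fam129a, on chromosome 1 and called Niban1 in RefSeq, is a stress-response gene. Its levels were 411, 403 and 500.5 CPM in the floxed and 844, 717 and 837 CPM in the knockout libraries. The groups did not overlap, and the mean went from 438 ± 54.0 to 799 ± 71.3 CPM (SD, n = 3). It rose by 0.87 on the log2 scale (SE 0.11, edgeR adjusted p = 0.0432).

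Tmem154, on chromosome 3, encodes a transmembrane protein. It had 176, 173 and 184 CPM in the floxed and 327, 308 and 302 CPM in the knockout libraries. Both groups were tight, with SDs of 6.02 and 13.3 CPM around means of 178 and 312 CPM. It rose by 0.81 (SE 0.10, edgeR adjusted p = 0.0432). Neither Fam129a nor Tmem154 shares an exonic base with a gene on the other strand in GENCODE M21.

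All 3 genes were also called by DESeq2 and by limma-voom with quality weights, which called 172 and 146 genes higher (1.48 and 1.18%) and 63 and 31 lower (0.543 and 0.25%). The number of calls thus depended on the tool, and 136 genes were shared by those 2 tools, 57.9% of the DESeq2 and 76.8% of the limma-voom calls. With the 6 male libraries alone edgeR called 0 genes, with 952 at an unadjusted p below 0.05 and a smallest adjusted p of 0.261. Leaving out floxed 4 gave 31 higher and 4 lower calls (0.239 and 0.0309%), and leaving out floxed 1 or 2 or any of the knockout libraries gave 0. The 3 genes were higher in every alternative fit that tested them, with log2 fold changes of 1.43 to 1.76, 0.81 to 1.05 and 0.78 to 0.86 in the order above, and their highest adjusted p was 0.310, 0.360 and 0.360.

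The next genes, 10 higher and 12 lower, taken in order of p among genes whose groups did not overlap, are given as values because none passed in edgeR. Genes of cytokine receptors stood near the top. Il1rl1, which encodes the IL-33 receptor, had 34.9, 26.7 and 35.3 CPM in floxed and 134, 87.1 and 106 CPM in knockout libraries. The log2 fold change was 1.75 (SE 0.25, edgeR adjusted p = 0.0585). Il18r1, a chain of the IL-18 receptor, had 61.8, 57.6 and 80.8 against 191, 131 and 153 CPM, and the log2 fold change was 1.25 (SE 0.19, edgeR adjusted p = 0.0585). In both genes knockout 1 was the highest library and knockout 2 the lowest of its group, still above all floxed libraries. Ptger2, a receptor for prostaglandin E, had a narrower change, with 121 to 143 against 196 to 206 CPM and a log2 fold change of 0.65 (edgeR adjusted p = 0.0641).

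Among the other genes with higher values, Ptpn13, a tyrosine phosphatase, had 31.1, 34.0 and 27.0 against 87.2, 69.1 and 96.8 CPM, a log2 fold change of 1.46. Abcb1a, a drug efflux pump of the cell membrane, had 21.3 to 28.4 against 47.1 to 63.8 CPM, a log2 fold change of 1.14. The cytoskeletal linker gene Dst stood at 0.86, the histone methyltransferase gene Nsd2 at 0.87 and Zcchc18, on the X chromosome, at 0.98. All 5 had an edgeR adjusted p of 0.0585. Abcb1a overlaps opposite-strand genes over 553 exonic bases and Dst over 1493, so their counts are less certain. Serpina3g, a protease inhibitor of activated T cells, had 68.1, 81.6 and 117 against 258, 219 and 246 CPM (log2 fold change 1.44, edgeR adjusted p = 0.0644), and Sdcbp2 stood at 1.08. Each gene of this paragraph passed in DESeq2 and in limma-voom, as did Il1rl1, Il18r1 and Ptger2. Those tools called 1.48 and 1.18% of all genes higher.

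On the lower side Samd3 came first, with 20.6, 16.7 and 11.6 CPM in floxed and 6.42, 5.62 and 4.75 CPM in knockout libraries (log2 fold change -1.54, SE 0.22, edgeR adjusted p = 0.0585). Cybrd1, a ferric reductase, had 99.4, 72.7 and 58.7 against 29.9, 26.3 and 26.4 CPM (log2 fold change -1.48, SE 0.26, edgeR adjusted p = 0.0942). The 3 knockout libraries were closely alike in Cybrd1 while the floxed ones were spread, and in both genes floxed 4 was the lowest of its group. Both genes passed the threshold in DESeq2 and in limma-voom. Tnnt2, the cardiac troponin T gene, had 6.75 to 8.83 against 1.79 to 3.77 CPM, and Ampd1, an AMP deaminase, 11.8 to 14.8 against 4.03 to 6.48 CPM. Their log2 fold changes were -1.39 and -1.34, and both passed in the same 2 tools. Smaller values belonged to Afap1 (-0.67), the GABA receptor subunit gene Gabrr2 (-0.76), Ager (-0.74), the collagen gene Col9a3 (-0.90), Igsf3 (-0.75), Dennd2d (-0.39), Drc3 (-1.25) and the MAP kinase phosphatase gene Dusp10 (-0.62). Of these, Afap1, Gabrr2, Ager, Igsf3 and Dennd2d also passed in both tools, which called 0.543 and 0.25% of all genes lower. Dennd2d overlaps opposite-strand genes over 1178 exonic bases, so its counts are less certain. The plot of CPM by library shows these genes one by one.

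**Figure D1:**
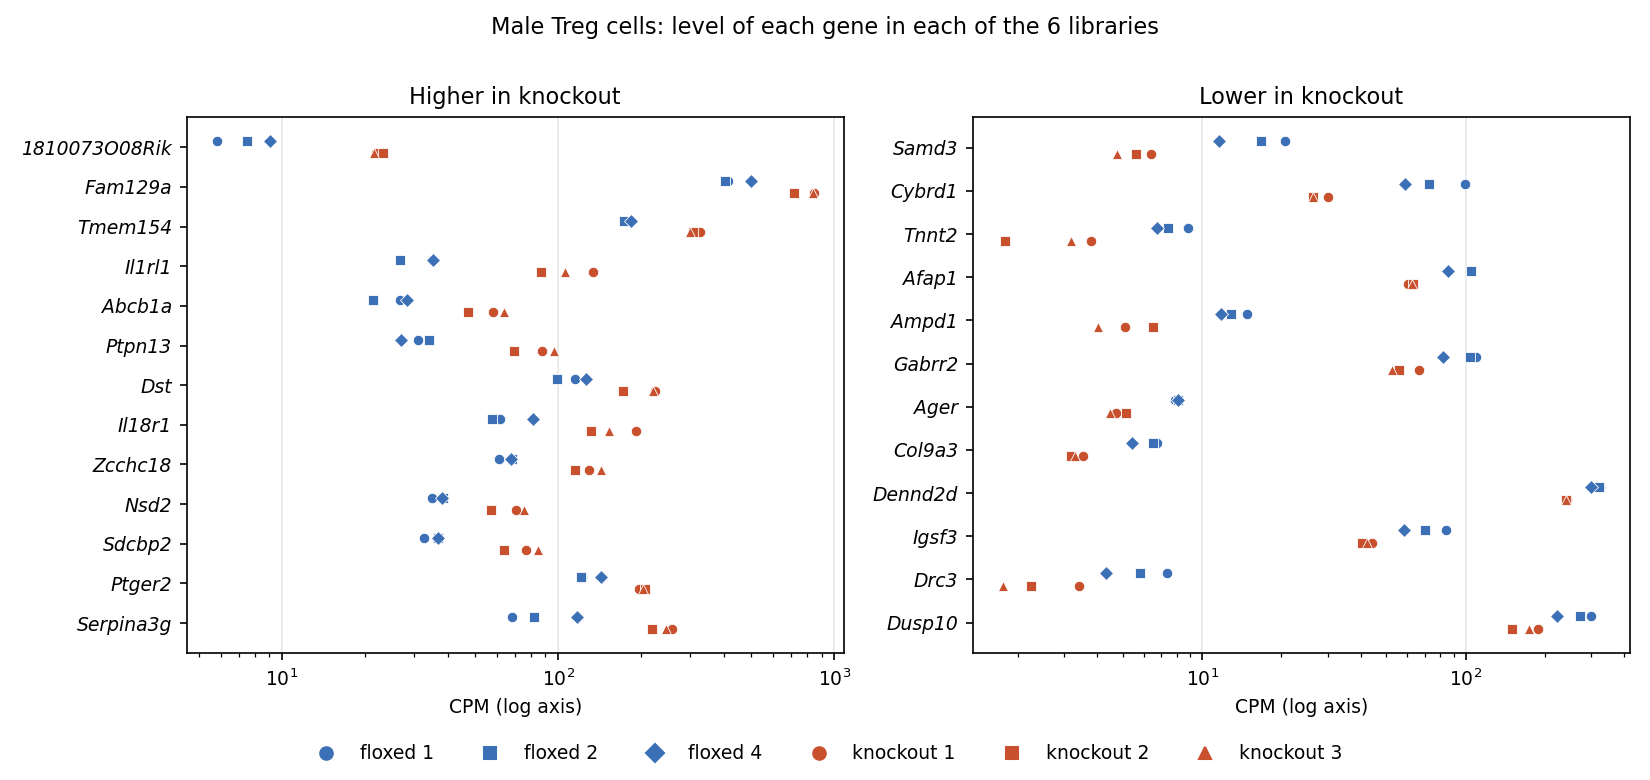
CPM, counts scaled to library size, on a log axis for the 3 genes that passed in edgeR, at the top left, and for the 10 next genes by p on the higher side (left) and the 12 first on the lower side (right), with 1 point for each male library. Floxed libraries are blue and knockout libraries red, and in every gene the 3 knockout points lie on 1 side of the 3 floxed points, which was a condition for being shown.

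Foxp3 itself, the gene that CNS4 serves, was lower in each knockout library than in each floxed library without passing the test. Its levels were 2675, 2588 and 2227 CPM in floxed and 1878, 1462 and 2037 CPM in knockout libraries. The gap was narrow, since floxed 4, the lowest of its group, came close to knockout 3. Means were 2496 ± 238 and 1792 ± 297 CPM (SD, n = 3), a ratio of 0.718, and the log2 fold change was -0.48 (SE 0.30, edgeR adjusted p = 0.835). That SE rests on all 12 libraries, and the female knockout libraries had the widest spread, at 1111 ± 621 CPM (SD, n = 3). Over 20 alternatives the log2 fold change ran from -0.57 to -0.34 and 0 of them passed. Counts of Foxp3 say nothing about whether CNS4 was deleted, and 856 of its exonic bases overlap genes on the other strand.

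The Foxp3 neighbourhood on the X chromosome had values on both sides of 0. Of 18 listed genes 14 were tested, 6 with a log2 fold change above and 8 below 0, with a median of -0.18 beside 0.01 over all tested genes, and 0 passed in edgeR. All 3 knockout libraries lay below all floxed libraries in 3 of the 14 (Foxp3, Flicr and Wdr45) and above them in 1 (Praf2), while 6.13% of all tested genes were below and 8.2% above in that way. Flicr, a noncoding RNA gene next to Foxp3, had 50.9, 43.8 and 50.1 against 37.3, 41.3 and 29.7 CPM (log2 fold change -0.42, edgeR adjusted p = 0.593). Wdr45 had 35.4 to 39.9 against 29.5 to 31.1 CPM (log2 fold change -0.32). Gripap1, at -0.22, overlapped, because knockout 3 (244 CPM) lay above floxed 4 (239.7 CPM).

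Genes that mark Treg cells as such had mostly higher levels in the knockout libraries. Of 23 tested members of the Treg identity list, 20 had a log2 fold change above 0 and 3 below, with a median of 0.29, and 0 passed in edgeR. Knockout libraries lay above all floxed libraries in 7 of them (8.2% of all tested genes did) and below in 2, Foxp3 and Gpr83 (6.13%). Leaving out knockout 1 or knockout 2 moved the median to 0.11 or 0.50. Il2ra, which gives the IL-2 receptor its high affinity, had 2237, 1904 and 2152 against 3008, 2114 and 2159 CPM. Only knockout 1 stood out, the groups overlapped, and the log2 fold change was 0.21 (SE 0.16, edgeR adjusted p = 0.924). Ctla4, an inhibitory receptor, had 841, 860.2 and 704 against 1325, 1015 and 1001 CPM without overlap (log2 fold change 0.47, SE 0.17, edgeR adjusted p = 0.411).

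Within that list, Capg, an actin-capping protein gene, had 573, 672 and 818 against 1217, 1082 and 1315 CPM (log2 fold change 0.81, edgeR adjusted p = 0.130), and it passed in DESeq2 and limma-voom. Cst7, the cystatin F gene, stood at 0.99 and passed in DESeq2 alone. The 2 surface enzymes that turn ATP into adenosine were both higher in level: Entpd1 (CD39) had 73.8 to 110.2 against 131 to 149.9 CPM, and Nt5e (CD73) had 642 to 679.7 against 864 to 1184 CPM. Their log2 fold changes were 0.66 and 0.70, with edgeR adjusted p of 0.319 and 0.414. Gpr83, a receptor gene of Treg cells, had 950.0, 983 and 852 against 733, 647 and 624 CPM, so all knockout libraries were below (log2 fold change -0.48, edgeR adjusted p = 0.264). Tnfrsf18 (GITR) and Tnfrsf4 (OX40) overlapped, at 0.00 and 0.10. Ikzf2, the Helios gene on the minus strand, had 3.27 to 6.21 against 4.23 to 6.73 CPM.

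The list of effector and recirculating Treg genes lay furthest up of the 16 pathway lists. All 26 tested members of 34 listed had a log2 fold change above 0, with a median of 0.99 beside 0.01 over all tested genes, and in 19 the knockout libraries lay above all floxed ones, as in 8.2% of all tested genes. No member passed in edgeR. DESeq2 called 15 members higher and limma-voom 15, against the backgrounds of 1.48 and 1.18% of all genes, and 0 lower in both. The mean level of the list, relative to the floxed mean on the log2 scale, was -0.23, -0.08 and 0.31 in floxed 1, 2 and 4 and 1.10, 0.94 and 1.08 in knockout 1, 2 and 3. The 8 listed genes that did not pass the filter on low counts had no test. The list was drawn up with earlier results of these data known, so its direction is no independent evidence.

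Several members act in tissue homing. Cxcr6, a chemokine receptor, had 13.6, 12.5 and 21.9 against 64.2, 59.4 and 47.3 CPM, the largest difference of the list (log2 fold change 1.83, SE 0.34, edgeR adjusted p = 0.100). Ccr2, another chemokine receptor, had 92.2, 78.3 and 142 against 279, 256 and 180.2 CPM (log2 fold change 1.19). Itgae, the integrin chain CD103 that binds epithelial cadherin, had 461, 554 and 686 against 1232, 1020.0 and 1400.4 CPM (log2 fold change 1.10, SE 0.22, edgeR adjusted p = 0.110). In Cxcr6 and Ccr2, floxed 4 was the highest floxed and knockout 3 the lowest knockout library, yet the groups stayed apart. Ccr6 and Ccr8 also did not overlap, at 0.57 and 0.43. All of Cxcr6, Ccr2 and Itgae passed in DESeq2 and limma-voom.

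Other members encode suppressive or costimulatory molecules. Icos, a costimulatory receptor, had 492, 505 and 585 against 1169.8, 975 and 1058 CPM, a ratio of 2.02 (log2 fold change 1.02, SE 0.20, edgeR adjusted p = 0.113). Il10, the cytokine gene, was low but separated, with 5.38, 4.27 and 4.24 against 13.6, 10.8 and 13.0 CPM (log2 fold change 1.43, SE 0.30, edgeR adjusted p = 0.120). Fgl2, a secreted suppressor, had 117, 94.6 and 176 against 483, 444 and 375 CPM (log2 fold change 1.75, SE 0.52, edgeR adjusted p = 0.301). The SE of Fgl2 rests on all 12 libraries, and its 6 male values did not overlap. Ebi3, a subunit of IL-35, had 23.9 to 41.0 against 70.4 to 85.2 CPM (log2 fold change 1.30). Icos, Il10, Itgae, Fgl2 and, below, Lgals3, Rrm1, Stat5a, Nt5e and Egr1 were singled out after their values were seen.

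Transcription factors of the list had smaller differences. Irf4 had 166, 215 and 249 against 314, 324 and 299 CPM (log2 fold change 0.57, edgeR adjusted p = 0.170), and Batf 135, 160.1 and 163 against 242, 195 and 257 CPM (0.60). Irf4 passed in DESeq2 and limma-voom and Batf in DESeq2. Among activation genes, Lgals1 (0.79) and S100a6 (1.11) did not overlap, and in both floxed 4 was the highest floxed library. Lgals1 had 187, 192 and 282 against 412, 368 and 361 CPM. S100a6 had 39.0, 37.9 and 89.3 against 121, 131 and 106 CPM, highest in knockout 2. Lgals3 was highest in the libraries with most macrophage marker RNA: it had 110.0 CPM in floxed 4 and 142 CPM in knockout 2, against 21.5 to 54.6 CPM in the other libraries. Its log2 fold change of 0.69 ran from 0.05 to 1.99 over the alternatives.

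Markers of macrophages and dendritic cells, which the sort should leave out, were measured beside these genes. In that list 20 of 21 tested genes had a log2 fold change above 0, with a median of 0.35, and 3 lay above without overlap (8.2% of all tested genes). None passed in edgeR, DESeq2 or limma-voom. The mean list level was -1.15, -0.90 and 2.05 in floxed and -0.14, 2.38 and 0.00 in knockout libraries, so 1 library of each genotype was high. Adgre1 had 14.3, 23.5 and 441 against 37.8, 468 and 94.4 CPM, and Csf1r 47.4, 71.9 and 464 against 83.2, 432 and 169 CPM. Of B cell markers 4 of 5 tested genes were above 0, and their summed level was 60.2, 53.3 and 237 against 66.0, 453 and 106 CPM, again highest in floxed 4 and knockout 2. Fcgr1 had 0 counts in every male library and Cd68 and Cd14 at most 1, all 3 of them minus-strand genes. Without floxed 4 and knockout 2, the effector list had a median of 1.44, and Il1rl1, Cxcr6, Icos and Il10 had log2 fold changes of 1.97, 2.11, 1.17 and 1.47. In that comparison of 2 against 2 libraries the marker list still differed, with a median of 1.30, and its part in the effector genes was not tested. With the marker list as a covariate in the fit to all 12 libraries, the effector median was 0.98.

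**Figure D2:**
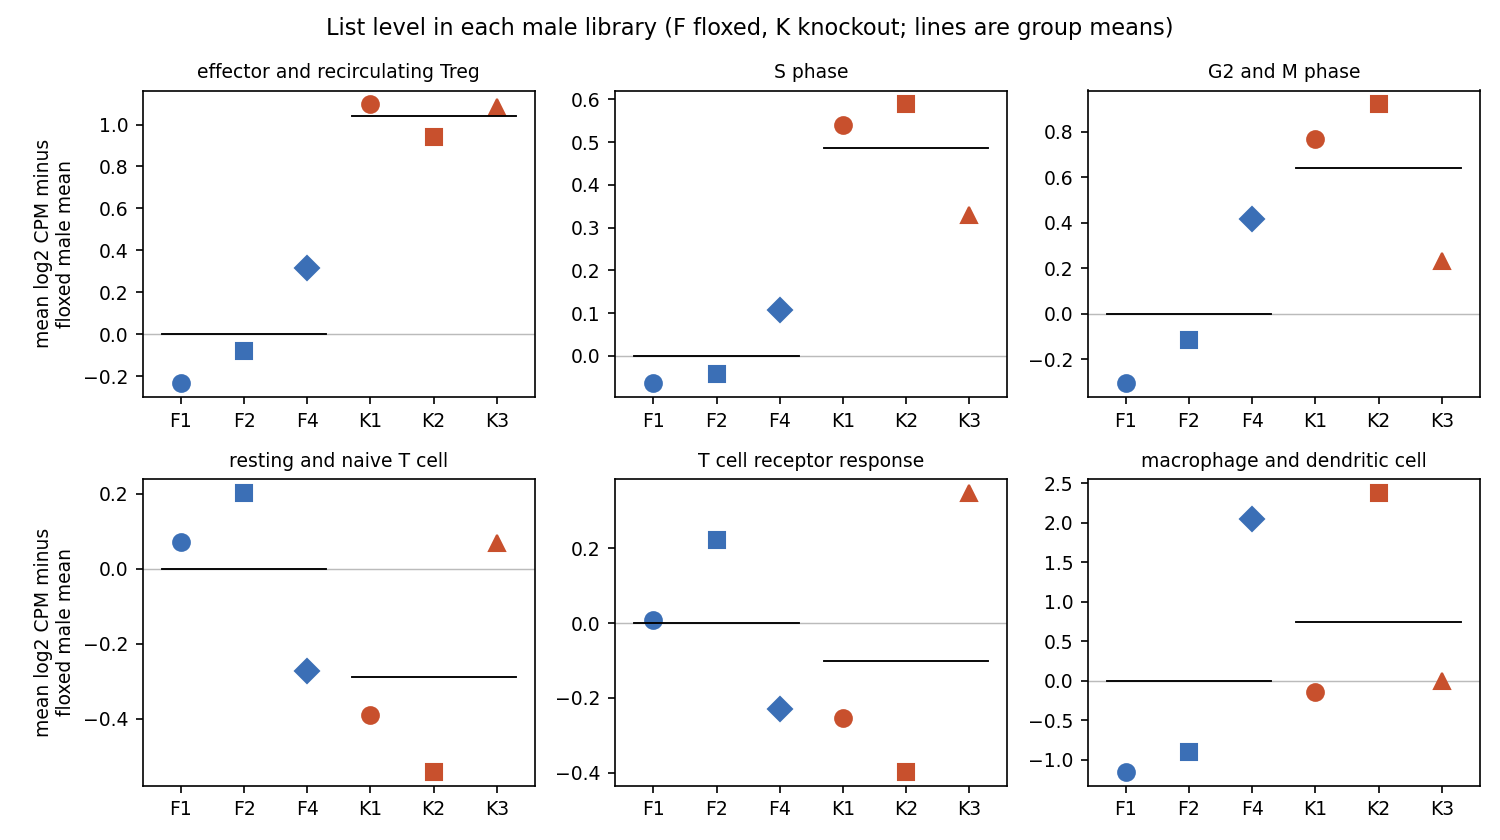
Mean log2 CPM of 6 gene lists in each male library, minus the mean of the floxed libraries, with F1, F2 and F4 for floxed and K1, K2 and K3 for knockout and black lines at the group means. The knockout points of the effector list (0.94 to 1.10) lie above all floxed points (-0.23 to 0.31), while the macrophage and dendritic cell list is high in F4 and K2 (2.05 and 2.38).

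In the IL-1 family list the receptor chains had the highest values. Of 11 tested genes, 9 had a log2 fold change above 0 and the median was 0.78, and 5 were above without overlap (8.2% of all tested genes) and 1 below (6.13%). The median was 0.40 without floxed 2 and 0.45 without knockout 2. The 4 that passed in both DESeq2 and limma-voom, which called 1.48 and 1.18% of all genes higher, were all receptor chains: Il1rl1 and Il18r1, described above, Il18rap and Il1r2. Il18rap, the second chain of the IL-18 receptor, had 14.3, 18.5 and 23.5 against 58.4, 44.7 and 44.9 CPM (log2 fold change 1.39, SE 0.25, edgeR adjusted p = 0.0942). Il1r2, the decoy receptor of IL-1, had 126, 132 and 186 against 292, 261 and 273 CPM (log2 fold change 0.90, edgeR adjusted p = 0.192). The shared accessory chain Il1rap overlapped at 0.02. The signalling kinase gene Irak2 was below in all knockout libraries, with 258 to 303 against 206 to 235 CPM (log2 fold change -0.35, edgeR adjusted p = 0.398). These 4 receptor chains are also members of the effector list.

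Chemokine receptors showed both directions. Of 10 tested chemokine receptor and homing genes (6 listed ones are also in the effector list), 7 were above 0, 6 of them without overlap (8.2% of all tested genes), with a median of 0.50. Ccr3 had 6.13 to 6.49 against 13.6 to 24.8 CPM (log2 fold change 1.46) and passed in DESeq2. Ccr9, a receptor of thymic and gut-homing T cells, was the opposite, with 218, 203 and 203 against 159, 174 and 138 CPM (log2 fold change -0.40, edgeR adjusted p = 0.581). Its counts are less certain, because it overlaps opposite-strand genes over 1954 exonic bases. Ccr7 on the minus strand, the receptor that guides T cells to lymph nodes, had 2.78 to 4.35 against 1.25 to 2.77 CPM (-0.81).

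Genes of resting and naive T cells had a median of -0.29, with 12 of 17 below 0, and 0 passed in edgeR. The median was -0.15 without floxed 2 and -0.19 without knockout 2. All knockout libraries were below in 2, Lef1 and Ccr7 (6.13% of all tested genes were), and above in 1, the minus-strand gene Il7r (8.2%). Lef1, a transcription factor of naive T cells, had 1229, 1400.1 and 978 against 756, 714 and 967 CPM. Knockout 3 nearly reached floxed 4, and the log2 fold change was -0.57 (SE 0.15, edgeR adjusted p = 0.223), which passed only in limma-voom. Lef1 overlaps opposite-strand genes over 1208 exonic bases, so its counts are less certain. The mean list level was 0.07, 0.20 and -0.27 in floxed and -0.39, -0.54 and 0.07 in knockout libraries, so knockout 3 lay among the floxed libraries. Ets1, with 3654, 5019 and 2361 against 1928, 1794 and 5295 CPM, and Klf2, with 26.1, 79.7 and 24.1 against 14.6, 15.8 and 141 CPM, were highest in floxed 2 and knockout 3. Those were also the libraries that the first principal component put together.

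Interleukin-2 signalling genes went neither way. Of 18 tested, 9 were above and 9 below 0, with a median of 0.01, and 0 passed in edgeR, DESeq2 or limma-voom. Stat5a, which carries the IL-2 signal to the nucleus, had 1190.3, 1229.7 and 1099 against 848, 780.4 and 920.4 CPM, with every knockout library below (log2 fold change -0.47, SE 0.34, edgeR adjusted p = 0.903). Stat5b on the minus strand had 74.8 to 101 against 49.0 to 67.2 CPM (-0.67). Cish, a gene switched on by STAT5, had 966, 978 and 942 against 1287, 989.9 and 1269 CPM (log2 fold change 0.30, edgeR adjusted p = 0.549). It overlaps opposite-strand genes over 740 exonic bases, so its counts are less certain. The 2 STAT5 genes and Cish thus stood on opposite sides, each without overlap and each far from the threshold. The tests of Stat5a and Stat5b rest on all 12 libraries. In both genes the female knockout libraries had the widest spread, at 577 ± 377 and 29.8 ± 25.5 CPM (SD, n = 3).

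Genes induced by T cell receptor signals had a median of -0.11, with 13 of 20 below 0 and 1 gene without overlap in each direction, near the 8.2% above and 6.13% below of all tested genes. Its sign was not stable, since the median was 0.12 without floxed 2, 0.01 without knockout 1 and 0.08 without knockout 2. Nr4a1 had 1275, 1239 and 1074 against 1093, 803 and 1193 CPM. Egr1, an immediate early gene, had 181, 448 and 133 against 68.9, 95.9 and 492 CPM, so that floxed 2 and knockout 3 were high. Nr4a3 had the same 2 libraries on top (174 and 217 CPM against 58.7 to 127 CPM in the rest). The mean list level was 0.01, 0.22 and -0.23 in floxed and -0.25, -0.40 and 0.35 in knockout libraries, and the genotypes overlapped.

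Cell cycle genes had mostly positive log2 fold changes, and 0 of 23 S phase and 0 of 29 G2 and M phase genes passed in edgeR. Of the S phase genes, which serve DNA replication, 20 had a log2 fold change above 0, 14 without overlap (8.2% of all tested genes), and the median was 0.58. Pole, the catalytic subunit of DNA polymerase epsilon, had 90.8, 93.0 and 121 against 178, 169 and 163 CPM (log2 fold change 0.75, SE 0.14, edgeR adjusted p = 0.103). Prim1, the primase subunit gene, had 53.3, 58.9 and 63.4 against 100.4, 108 and 88.4 CPM (0.76, edgeR adjusted p = 0.109), and Lig1, DNA ligase I, 103, 135 and 147 against 194, 201 and 205 CPM (0.64, edgeR adjusted p = 0.133). Rrm1, a subunit of ribonucleotide reductase, had 258, 307 and 340.4 against 444, 499.9 and 404 CPM (0.58, edgeR adjusted p = 0.216). These 4 passed in DESeq2 and limma-voom, which called 7 and 5 members of the list, all higher, against 1.48 and 1.18% of all genes. Mcm5, of the replicative helicase, stood at 0.57 and passed in DESeq2. The mean list level was -0.06, -0.04 and 0.11 in floxed and 0.54, 0.59 and 0.33 in knockout libraries.

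Genes of G2 and mitosis had a median of 0.70, and the genotypes overlapped in the mean level of the list. Of 29 tested, 27 were above 0 and 8 without overlap (8.2% of all tested genes), and knockout 3 was lower than the other knockout libraries and floxed 4 higher than the other floxed ones. The mean list level was -0.30, -0.11 and 0.42 in floxed and 0.77, 0.92 and 0.23 in knockout libraries. Hmgb2 had 163, 175 and 241 against 349, 388 and 262 CPM (log2 fold change 0.79, edgeR adjusted p = 0.151), and Cenpe, a kinetochore motor gene, 38.7, 49.0 and 69.0 against 108, 104 and 73.7 CPM (0.87, edgeR adjusted p = 0.228). Both passed in DESeq2 and limma-voom, as did Smc2 (0.69), a condensin gene in which knockout 3 (121 CPM) lay below floxed 4 (122 CPM). DESeq2 called 3 members and limma-voom 9, all higher, against 1.48 and 1.18% of all genes. Without floxed 4 the median was 1.08. Mki67 and Top2a, usual marks of cycling cells, lie on the minus strand and had at most 1.07 and 9.31 CPM.

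Glycolysis genes had smaller differences in the same direction. Of 20 tested, 15 were above 0, 10 without overlap (8.2% of all tested genes), with a median of 0.31, and 0 passed in edgeR. Eno1 had 1292, 1474 and 1564 against 1861, 1749.9 and 1719 CPM (log2 fold change 0.30), and Ldha 1809, 2326 and 2351 against 2857, 2476 and 2872 CPM (0.34). Gpi1 on the minus strand had 323 to 338 against 402 to 431 CPM (0.33) and shares 741 exonic bases with another gene. Aldoc (0.90) passed in DESeq2 and limma-voom, and Gpi1 and the minus-strand gene Aldoa (0.47) in DESeq2 alone.

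Regulators of Foxp3 had a median of -0.07, with 13 of 28 tested genes above and 15 below 0. The 15 plus-strand members had a median of 0.14, and the other 13 lie on the minus strand. All knockout libraries were above without overlap in 3, Irf4, Rbpj and Uhrf1 (8.2% of all tested genes), and below in 5 (6.13%). Those below were Stat5a and the minus-strand genes Stat5b, Tet3, Rel and Stat3. Rbpj, the nuclear partner of Notch, had 67.8 to 98.3 against 111 to 141 CPM (log2 fold change 0.59, edgeR adjusted p = 0.319). Of immature thymocyte genes 5 of 14 were above 0, with a median of -0.09, and the 9 plus-strand members had a median of 0.18. Cd8b1, a marker of double-positive thymocytes, overlapped with 77.2 to 122 against 76.7 to 103 CPM, as did Dntt, whose highest values were in floxed 4 (149 CPM) and knockout 2 (197 CPM). Defining T cell genes differed little, with a median of 0.03 over 12 genes. Trac, the T cell receptor alpha constant region, had 1592 to 1693 against 1609.8 to 1835 CPM.

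**Figure D3:**
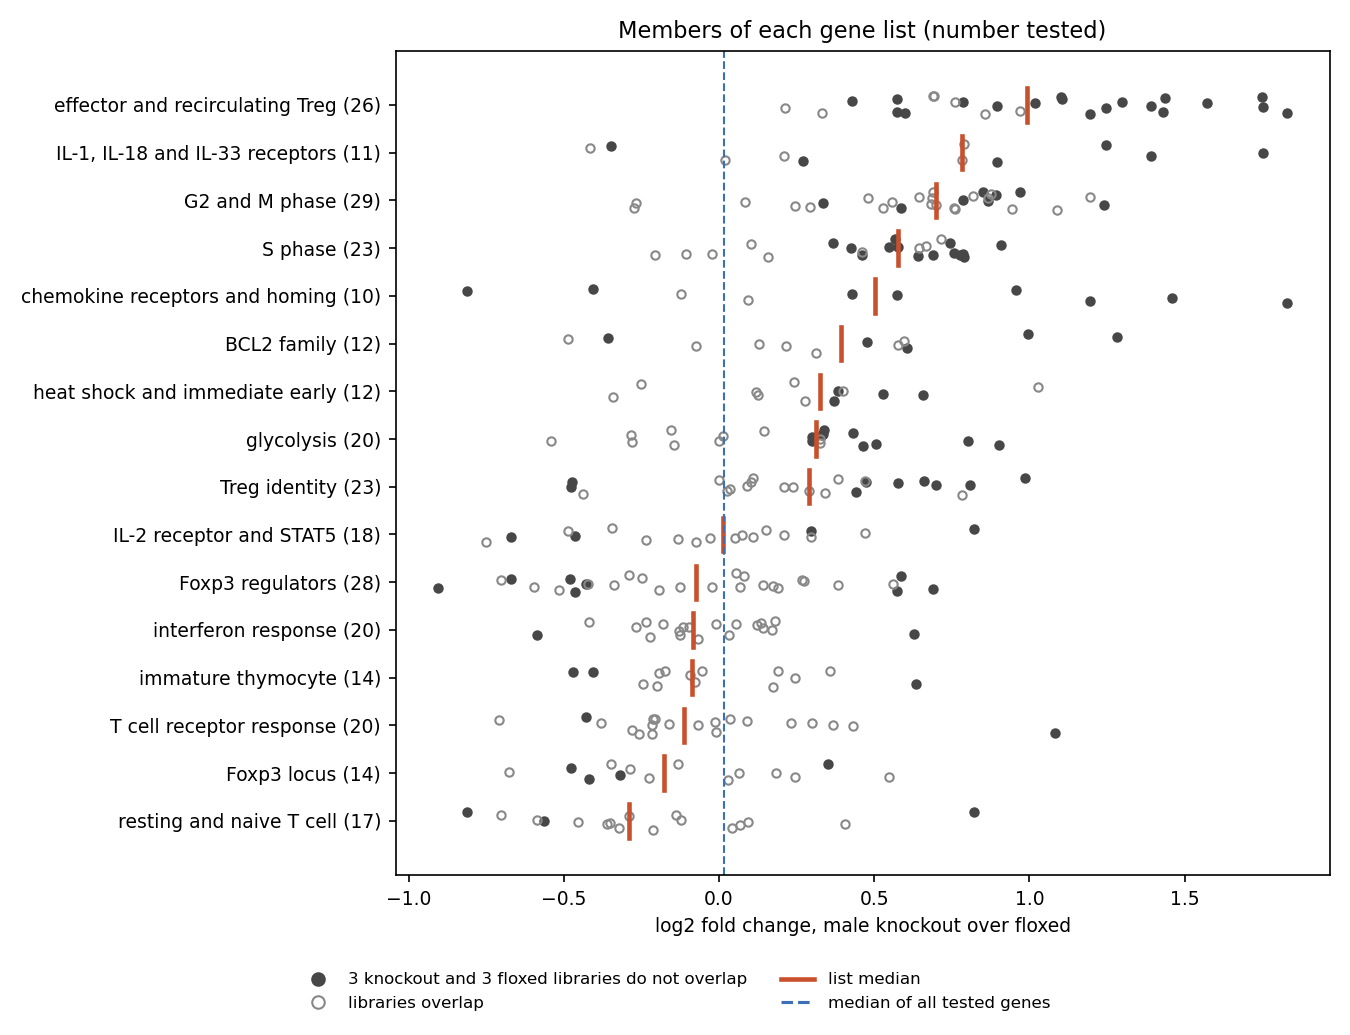
Log2 fold change of knockout over floxed males for each tested member of the 16 pathway lists, with filled points for genes whose 3 knockout and 3 floxed libraries do not overlap, red bars at the list medians and a dashed line at the median of all tested genes (0.01). The effector list has the highest median (0.99) and the resting and naive list the lowest (-0.29). Of all tested genes 8.2% would be filled with knockout above and 6.13% with knockout below.

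The male comparison was set against the same contrast in the heterozygous females, which uses other libraries but the same fit. Over 8741 genes with a mean of at least 1 log2 CPM, Pearson's r between the log2 fold changes was 0.57 and Spearman's rho 0.56, across genes, which are not independent replicates. The sign was shared by 6053 of these genes (69.2%). Of the called genes, Tmem154 stood at 0.81 in males and 0.80 (SE 0.10) in females, Fam129a at 0.87 and 0.56 and 1810073O08Rik at 1.58 and 0.83. Il18r1 stood at 1.25 in both, Il1rl1 at 1.75 and 1.41, Cxcr6 at 1.83 and 2.39 and Cybrd1 at -1.48 and -1.43. Other genes of the male comparison were nearer 0 in females: Dst at 0.86 and 0.38, Gabrr2 at -0.76 and -0.13, Drc3 at -1.25 and -0.18, Dennd2d at -0.39 and -0.053 and Dusp10 at -0.62 and -0.045. Foxp3 stood at -0.48 in males and -1.24 (SE 0.31) in females. The female knockout libraries were not alike in it, with 1111 ± 621 CPM against 2632 ± 43.8 CPM in female floxed libraries (SD, n = 3). The summed level of the Foxp3 neighbourhood list, which counts Foxp3 itself, was 1559, 2783 and 1688 CPM in female knockout 1, 2 and 3. In the female floxed libraries it was 3555 to 3725 CPM, most of it from Foxp3. The sum therefore says little about the neighbouring genes.

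Whether the female and male effects differ was tested directly. By edgeR 0 of 12411 genes passed (0%), with 339 at an unadjusted p below 0.05 and a smallest adjusted p of 0.892. DESeq2 also called 0, while limma-voom with quality weights called 1040, so the answer depends on the tool. For Foxp3 the difference, female minus male, was -0.77 (SE 0.43, edgeR adjusted p = 0.892). Fgl2 had a male effect of 1.75 and a female one of 0.52, and Nt5e one of 0.70 and -0.04, and neither difference passed (edgeR adjusted p = 0.892 for both). The female knockout libraries were spread in both genes, at 170 ± 143 and 597 ± 258 CPM (SD, n = 3).

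**Figure D4:**
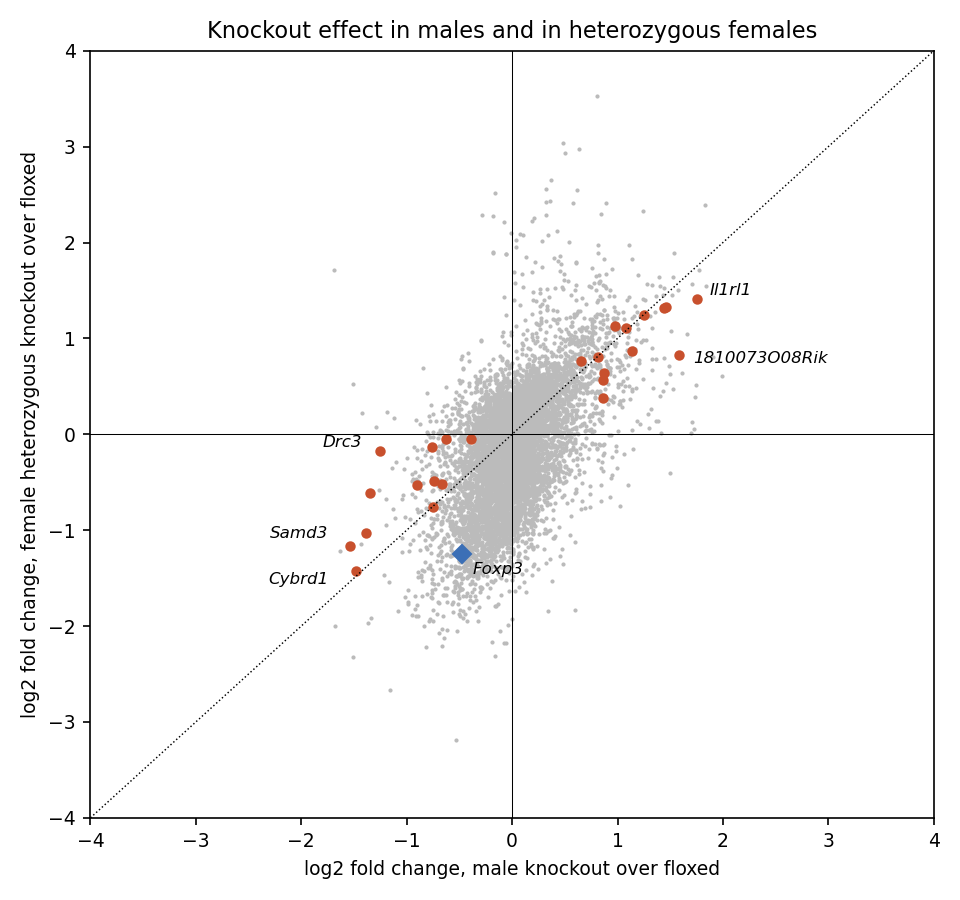
Log2 fold change of knockout over floxed in males (x axis) and in heterozygous females (y axis) for tested genes with a mean of at least 1 log2 CPM, in grey, with the 3 called and the next genes by p of the male comparison in red and Foxp3 in blue. The red points lie on the same side of 0 in both, while Foxp3 lies below the diagonal at -0.48 and -1.24, and 1 gene falls outside the axes.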

How the data were processed

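The deposited table holds raw read counts per gene symbol, and the authors applied no normalization to it, per the file headers and the whole numbers in it. Tools named were CASAVA, STAR 2.3.0e and 2.5.2b and HTSeq 0.6.1p1, with build mm9, per the submitters' processing notes. Libraries were made with a stranded kit, per the labels' protocols; the annotation and strand setting are not given in the sources used here. Reads not assigned to a gene, 64.3 to 68.1% of a male library, were left out. They include those that met no annotated feature, which were 44.3 to 45.7% of a male library.

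Of 55453 genes, 29806 had reads and 12411 passed filterByExpr. Counts were scaled by TMM and fitted in edgeR 4.0.16 (R 4.3.3) with 1 mean per group over all 12 libraries, robust quasi-likelihood and 8 residual degrees of freedom, and p-values were adjusted by Benjamini-Hochberg over all tested genes. CPM use TMM-scaled library sizes. DESeq2 1.42.0 (11594 genes with an adjusted p) and limma 3.58.1 (voom) were alternatives, and the code was tested on simulated data. Gene counts of 14047136 to 30244505 per male library set the precision, which is least for genes of few counts. Strand and overlap came from GENCODE M21 by symbol (54510 matched), promoters from RefSeq on GRCm38.p6 (3 of 3 matched).

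Within a group, libraries differed by more than counting noise (chi-square per degree of freedom 26.3 to 149). Numbers 1 and 2 occur in both male groups. The deviations of same-numbered libraries correlated at 0.44 and -0.61, so the numbers were not taken as pairs. Floxed 4 correlated at 0.67 with knockout 2, and floxed 2 at 0.57 with knockout 3. Whether these libraries share a processing step was not tested, and the main fit had no block.

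Genes named were those called, then by p up to 12 in each direction whose level averaged 1 or more log2 CPM, with no overlap and a symbol that is no predicted model, 4 members per list by p, and Foxp3, Il2ra, Ctla4, Ikzf2, Cd3d, Cd3e and Cd4; further list members and 9 genes were added after their values were seen. The members and lists (16 pathways, 7 marker lists) were chosen with earlier results of these data known. No table columns went unmapped. Figures used matplotlib 3.10.9.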

Additional observations from a re-analysis of the deposited data

How the results depend on the processing

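Calls in the male comparison, 3 higher and 0 lower by edgeR, moved with most settings, and the cause was not tested. They were 172 and 63 by DESeq2, 146 and 31 by limma-voom, 22 and 4 with no low-count filter, 10 and 1 without female knockout libraries 1 and 3, and 7 and 1 with the GC and length trend removed. A minimum of 5 CPM in 3 libraries gave 3 and 1. With edgeR 0 genes were called on the 6 male libraries only (952 at an unadjusted p below 0.05), on plus-strand genes (849), with the macrophage list as covariate (987), without floxed 4 and knockout 2 (986) and with knockout 3 thinned to 14855575 counts (1021). The last 2 and a fit on 6400 plus-strand genes that share no exonic base with the other strand, which gave 2 and 0, were chosen after seeing the data. Leaving out each male library gave 0 to 31 higher and 0 to 4 lower, with 684 to 1856 genes at an unadjusted p below 0.05. The difference between females and males went from 0 to 1040 genes in limma-voom. The replicate number as a block gave 0 calls (1154 at an unadjusted p below 0.05), also with the GC trend removed (1217), and the samples share only a number, so this says nothing on the size of the effect.

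Ikzf2 (0.11) turned to -0.082 with the replicate block, -0.10 with block and GC trend, and ran from -0.11 to 0.33 with a library left out. Egr1 (-0.21) turned to 0.086 with the macrophage covariate and ran from -1.61 to 0.48 with a library left out, above 0 without floxed 2 or knockout 1 or 2. No other gene recomputed under the settings turned. The medians of the T cell receptor response, Foxp3 regulator, interleukin-2, immature thymocyte and T cell lists, all near 0, changed sign with a library left out. Markers and further list members were not recomputed one by one. 1810073O08Rik, Fam129a and Tmem154 passed in 8 of 19, 8 of 21 and 9 of 21 settings. The effector list had a median of 0.79 to 1.44, the S phase list 0.52 to 0.70, the IL-1 family list 0.40 (without floxed 2) to 1.14 (replicate block), the Treg identity list 0.11 (without knockout 1) to 0.50 (without knockout 2) and the macrophage list -1.42 (without knockout 2) to 2.48 (without floxed 4).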

Other observations

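Genes of the BCL2 family, which set cell survival, had a median log2 fold change of 0.39 over 12 tested members, 9 above 0, and a median of 0.20 without floxed 1. Bik, a pro-apoptotic member, had 1.86, 2.72 and 2.99 CPM in floxed 1, 2 and 4 and 4.65, 4.76 and 5.66 CPM in knockout 1, 2 and 3 (log2 fold change 0.99, edgeR adjusted p = 0.154), and it passed the threshold in DESeq2 and limma-voom. Bcl2l11, which encodes the pro-apoptotic protein BIM, lay the other way, with 256, 250.0 and 199.6 against 175, 177 and 199 CPM (-0.36), so that floxed 4 and knockout 3 were almost level. Of the interferon response genes, 8 of 20 tested were above 0 and the median was -0.08. Only 1 gene was without overlap in each direction, near the 8.2% above and 6.13% below of all tested genes. Gbp3, a guanylate-binding protein gene, was separated upward with 175 to 207 against 272 to 323 CPM (0.63), and Oasl2 downward with 99.1 to 125 against 68.1 to 78.7 CPM (-0.59), at an edgeR adjusted p of 0.260 and 0.314.

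Hsp90aa1, a chaperone gene on the minus strand, had 208, 189 and 178 against 321, 274 and 235 CPM (log2 fold change 0.53, edgeR adjusted p = 0.235), and it passed in DESeq2 and limma-voom. Of 12 tested heat shock and immediate early genes, 10 were above 0, 4 without overlap (8.2% of all tested genes), with a median of 0.32, and 0 passed in edgeR. On plus-strand genes that share no exonic base with the other strand the median was 0.09. Epcam, a marker of thymic epithelium, reached 45.0 CPM in knockout 3 and 23.4 CPM in floxed 2, against 3.59 to 7.04 CPM in the other male libraries.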
